A study of Mus musculus with 4 samples.

Results

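The SWI/SNF, CHD and ARID chromatin remodelers are described here by their transcript levels in mouse embryonic stem cells with and without Gcn5 (Kat2a), a histone acetyltransferase. Members were taken by name: every symbol that starts with Smarc, with Chd and a digit from 1 to 9, or with Arid and a digit from 1 to 5, without pseudogene and Rik entries. This gave 33 of 23259 genes. RNA was sequenced from 4 clones, and the study compared expression in Gcn5 KO with WT cells. All clones descend from 2 Gcn5 flox/flox founder lines, 4 and 6, each from its own blastocyst outgrowth, with a normal male karyotype. Each founder line was transfected for a short time with a vector that makes a GFP-Cre fusion from the EF1α promoter. From each line the WT clone was picked from GFP-negative cells and keeps the floxed gene, and the KO clone was picked from GFP-positive cells and has lost exons 3 to 18 on both alleles. Each clone is therefore a single colony, and replicate 1 of each genotype is line 4 and replicate 2 is line 6. The floxed lines were kept with 15% serum and LIF on mitomycin-treated feeder fibroblasts. Values are FPKM (fragments scaled by transcript length and sequencing depth) that the authors scaled to spike-in RNA, with 1 value per gene and library.

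Chromatin remodelers use ATP to slide, eject or exchange nucleosomes. SWI/SNF (BAF) complexes with an ARID subunit hold either Smarca4 (Brg1) or Smarca2 (Brm) as motor. They share a core with Smarcb1, Smarcc, Smarcd and Smarce1 proteins, and the ARID subunit sets their type. Stem cells are known for a form of the complex built on Smarca4, Smarcc1 and Arid1a. ISWI motors (Smarca5, Smarca1) space nucleosomes. The CHD proteins Chd1 to Chd9 carry chromodomains and include the motor of the NuRD complex, Chd4. ARID proteins share an AT-rich interaction domain that binds DNA.

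Whether 2 genes can be told apart depends on their sequences, so the coding sequences of paralogs were compared first (GENCODE M21 transcripts, build GRCm38, sense strand). Smarca4 and Smarca2 were identical at 76.7% of 4606 aligned coding bases, and their longest shared run was 20 bases. The 90-base stretch in which they were most alike is shown because it is where reads of both genes are hardest to separate. Capitals mark the 9 bases that differ. It is coding bases 3670 to 3759 of Smarca4 (chromosome 9) and 3613 to 3702 of Smarca2 (chromosome 19).
Smarca4: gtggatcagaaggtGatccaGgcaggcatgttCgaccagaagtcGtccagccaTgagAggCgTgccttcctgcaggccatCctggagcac
Smarca2: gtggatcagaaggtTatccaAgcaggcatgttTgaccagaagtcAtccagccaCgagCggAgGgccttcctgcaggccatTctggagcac
Arid1a and Arid1b, whose levels are compared between the lines further on, differed at 16 of 90 bases even in their closest stretch, coding bases 6029 to 6118 of Arid1a (chromosome 4) and 6056 to 6145 of Arid1b (chromosome 17).
Arid1a: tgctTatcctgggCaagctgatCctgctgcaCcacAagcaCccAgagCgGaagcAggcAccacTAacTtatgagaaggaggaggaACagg
Arid1b: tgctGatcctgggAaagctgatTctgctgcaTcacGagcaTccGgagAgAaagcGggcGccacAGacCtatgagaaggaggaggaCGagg
In all 16 paralog pairs compared, no 50-base word of the first gene occurred in the second.

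The ISWI motor Smarca5 was a different case. Its processed pseudogene Smarca5-ps, on chromosome 4, was identical to it at 98.2% of 3113 aligned bases, with a shared run of 254 bases. The stretch shown is the one with the most differences, 6 of 90 bases, in capitals. It is coding bases 1704 to 1793 of Smarca5 (chromosome 8) and bases 1677 to 1766 of the pseudogene transcript.
Smarca5: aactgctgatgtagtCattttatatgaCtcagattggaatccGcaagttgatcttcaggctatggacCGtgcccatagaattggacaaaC
Smarca5-ps: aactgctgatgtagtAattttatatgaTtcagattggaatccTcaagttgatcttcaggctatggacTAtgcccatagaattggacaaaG
Of all 50-base words of Smarca5, 68.8% occurred in a sense transcript of at least 1 of 7 other annotated genes. For Smarce1, a DNA-binding core subunit, 84.7% occurred in transcripts of 5 other genes, among them Smarce1-ps1. The levels of these genes are therefore uncertain, since reads could have been placed on the copies or the copies' reads on them. In the files Smarca5-ps stood at 0.740 to 0.755 of the FPKM of Smarca5 in the 4 libraries. Smarcc1 shared 5.67% of its words, Arid1a, Chd2, Chd6 and Chd8 shared 0.239% to 1.39%, and the other 26 members shared none.

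Levels of the members spanned from under 1 FPKM to at least 94.9 FPKM in every library. By the mean over the 4 libraries, 5 members stood above 50 FPKM, 6 between 20 and 50 FPKM, 6 between 10 and 20 FPKM, 6 between 5 and 10 FPKM and 7 between 1 and 5 FPKM, and 3 (Smarca2, Arid3c and Arid5a) stayed under 1 FPKM. The genes under 1 FPKM were not tested, so 30 members entered the tests.

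Among the SWI/SNF motors, nearly all transcript came from Smarca4. Smarca4 was listed at 63.6 (WT) and 45.1 FPKM (KO) in line 4 and at 65.8 and 55.6 FPKM in line 6. Smarca2 was listed at 0.568 (WT) and 0.348 FPKM (KO) in line 4 and at 0.443 and 0.490 FPKM in line 6, far below it. Smarca4 made up 99.1% to 99.3% of the FPKM of the pair in the 4 libraries, a ratio of 126 ± 17.0 (SD, n = 4). Both KO clones were thus below both WT clones for Smarca4, as for 59.8% of tested genes, while the groups overlapped for Smarca2.

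The core subunits repeated this preference for 1 paralog in the scaffold, but not in the Smarcd family. Smarcb1, the subunit that contacts the nucleosome's acidic patch, was listed at 75.1 (WT) and 54.6 FPKM (KO) in line 4 and at 77.2 and 66.8 FPKM in line 6. The scaffold Smarcc1 stood at 59.4 (WT) and 41.5 FPKM (KO) in line 4 and at 56.7 and 50.0 FPKM in line 6, against 5.27, 3.72, 4.82 and 4.24 FPKM for Smarcc2 in the same order. The ratio of Smarcc1 to Smarcc2 was 11.5 ± 0.333 (SD, n = 4), one of the steadiest of the 16 ratios. Smarce1 was listed at 40.1 (WT) and 28.4 FPKM (KO) in line 4 and at 43.7 and 37.1 FPKM in line 6. For Smarcb1, Smarcc1, Smarcc2 and Smarce1 the KO clones lay below the WT clones without overlap, as they did for 59.8% of tested genes.

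Smarcd1 and Smarcd2, which link the complex to transcription factors, were near parity. Smarcd1 was listed at 30.0 (WT) and 23.5 FPKM (KO) in line 4 and at 37.1 and 31.4 FPKM in line 6, and Smarcd2 at 30.6, 24.4, 25.9 and 20.7 FPKM in the same order. Their ratio was 0.980 and 0.963 in the line 4 clones and 1.44 and 1.52 in the line 6 clones. It was thus higher in both line 6 clones, and the WT and KO clones of a line were close. Smarcd3, the paralog known from heart and muscle, was listed at 5.26 FPKM in WT replicate 1 and at 2.44, 2.25 and 2.06 FPKM in WT replicate 2 and KO replicates 1 and 2. It made up 3.73% to 7.99% of the Smarcd FPKM, with the top share in WT replicate 1.

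The ARID subunits were listed below Smarcb1, Smarcc1, Smarce1, Smarcd1 and Smarcd2 of the core. Arid2, which marks the PBAF form, was listed at 11.9 (WT) and 9.37 FPKM (KO) in line 4 and at 15.3 and 14.2 FPKM in line 6. Arid1a, of the canonical BAF form, was listed at 7.45 (WT) and 5.21 FPKM (KO) in line 4 and at 13.4 and 12.3 FPKM in line 6. Its alternative Arid1b was listed at 3.57 (WT) and 2.36 FPKM (KO) in line 4 and at 4.40 and 3.54 FPKM in line 6. Arid2 was the top member of the 3 in every library, with 46.3% to 55.3% of their FPKM. The ratio of Arid1a to Arid1b was 2.09 and 2.21 in line 4 and 3.04 and 3.48 in line 6.

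Of the ISWI motors, Smarca5 (Snf2h) was listed at 69.2 (WT) and 52.2 FPKM (KO) in line 4 and at 73.0 and 64.9 FPKM in line 6, subject to the shared sequence above. Smarca1 (Snf2l), known from neurons, was listed at 4.57 (WT) and 2.85 FPKM (KO) in line 4 and at 7.02 and 5.41 FPKM in line 6. Smarca5 made up 91.2% to 94.8% of the pair. Smarcad1, a motor that helps to keep heterochromatin silent after replication, was abundant at 39.5 (WT) and 27.8 FPKM (KO) in line 4 and at 60.9 and 55.1 FPKM in line 6. Smarcal1, which anneals DNA at stalled replication forks, was listed at 8.45 (WT) and 4.57 FPKM (KO) in line 4 and at 5.44 and 4.54 FPKM in line 6. Smarca1 and Smarcad1 were higher in both line 6 clones than in both line 4 clones, as were 16.3% of tested genes, and Smarcal1 was not.

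Chd4 was the top member of all 33 in each library. It was listed at 124 (WT) and 94.9 FPKM (KO) in line 4 and at 144 and 122 FPKM in line 6, which is between the 93.2 and 94.5 percentile of tested genes. Its paralog Chd3 was listed at 5.61 (WT) and 3.08 FPKM (KO) in line 4 and at 4.70 and 4.24 FPKM in line 6. The third, Chd5, known as a neural gene, was listed at 2.49, 1.11, 1.53 and 1.35 FPKM in that order. Chd4 made up 93.9% to 95.8% of the FPKM of the 3, with the lowest share in WT replicate 1.

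Chd1 and Chd2 were closer to each other. Chd1, which binds methylated histone H3 at active genes and is known for keeping stem cell chromatin open, was listed at 33.2 (WT) and 23.3 FPKM (KO) in line 4 and at 33.5 and 28.2 FPKM in line 6. Chd2 was listed at 21.7 (WT) and 11.4 FPKM (KO) in line 4 and at 14.9 and 14.0 FPKM in line 6. Their ratio ran from 1.53 in WT replicate 1 to 2.24 in WT replicate 2. Chd1l (Alc1), a motor activated by poly(ADP-ribose), was listed at 29.1 (WT) and 20.7 FPKM (KO) in line 4 and at 23.6 and 19.0 FPKM in line 6.

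No single gene led the subfamily of Chd6, Chd7, Chd8 and Chd9, 4 large proteins with tandem chromodomains. Chd8 was listed at 14.4 (WT) and 9.48 FPKM (KO) in line 4 and at 18.8 and 15.0 FPKM in line 6. Chd9 was listed at 11.3 (WT) and 9.07 FPKM (KO) in line 4 and at 13.2 and 12.8 FPKM in line 6. Chd7, which binds enhancers in stem cells, was listed at 9.39 (WT) and 7.70 FPKM (KO) in line 4 and at 13.9 and 12 FPKM in line 6. Chd6 was listed at 9.64 (WT) and 7.11 FPKM (KO) in line 4 and at 8.83 and 7.45 FPKM in line 6. Shares of their summed FPKM ran from 15.8% for Chd6 in KO replicate 2 to 34.3% for Chd8 in WT replicate 2. The ratio of Chd8 to Chd9 was 1.28 and 1.42 in WT and 1.05 and 1.17 in KO, and that of Chd8 to Chd7 was 1.53 and 1.35 in WT and 1.23 and 1.24 in KO. These 2 ratios were lower in both KO clones than in both WT clones. So were those of Arid3b to Arid3c and Arid5b to Arid5a, each with a gene under 1 FPKM. The remaining paralog ratios overlapped between the genotypes. An exact two-sided permutation test of 2 against 2 cannot give a p below 0.333. No difference in a ratio can therefore be called, between the genotypes or between the lines. The lines did not overlap for Smarcc1 to Smarcc2, Smarcd1 to Smarcd2 and to Smarcd3, Arid1a to Arid1b and Smarca5 to Smarca1. Nor did they for Chd4 to Chd5, Chd8 to Chd6, Arid3a to Arid3b and Arid4b to Arid4a.

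Among the DNA-binding ARID proteins outside SWI/SNF, the B paralogs were the more abundant. Arid3b was listed at 7.68 (WT) and 5.89 FPKM (KO) in line 4 and at 8.64 and 8.26 FPKM in line 6. Arid3a (Bright), known from B cells and trophectoderm, was listed at 5.83 (WT) and 4.97 FPKM (KO) in line 4 and at 3.50 and 3.35 FPKM in line 6. Their ratio, Arid3a to Arid3b, was 0.759 and 0.844 in line 4 and 0.405 and 0.406 in line 6. It was thus lower in both line 6 clones, where the genotypes were nearly equal. Arid3c was listed at 0.211 (WT) and 0.237 FPKM (KO) in line 4 and at 0.172 and 0.421 FPKM in line 6.

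Arid4b and Arid4a, partners in the Sin3 deacetylase complex, kept a ratio of 1.78 ± 0.0506 (SD, n = 4) over the 4 libraries. Arid4b was listed at 11.2 (WT) and 6.96 FPKM (KO) in line 4 and at 10.6 and 9.19 FPKM in line 6, and Arid4a at 6.51, 3.96, 5.78 and 5.12 FPKM in the same order. Arid5b, a partner of the demethylase Phf2, was listed at 11.8 (WT) and 7.95 FPKM (KO) in line 4 and at 12.2 and 10.4 FPKM in line 6. Arid5a was listed at 0.580 (WT) and 0.563 FPKM (KO) in line 4 and at 0.540 and 0.577 FPKM in line 6, a level at which Arid5b exceeded it by a factor of 14.1 to 22.5.

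**Figure D1:**
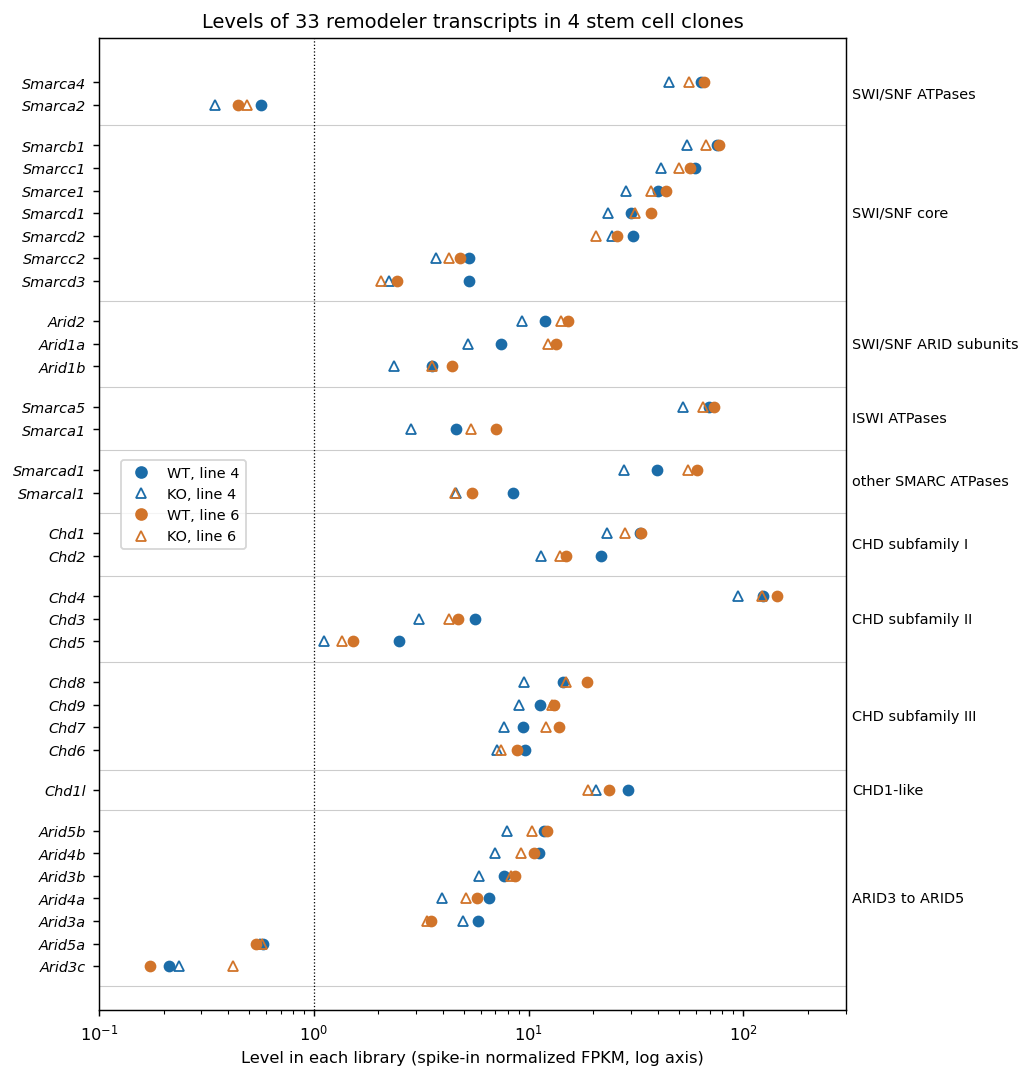
Level of each of the 33 members in FPKM (log axis) in the 4 libraries, grouped by family and ordered by mean within a family. Circles are WT and open triangles KO, and blue is line 4 and orange line 6. Chd4 is the rightmost gene, at 94.9 to 144 FPKM, and Smarca2, Arid5a and Arid3c lie left of the dotted line at 1 FPKM.

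**Figure D2:**
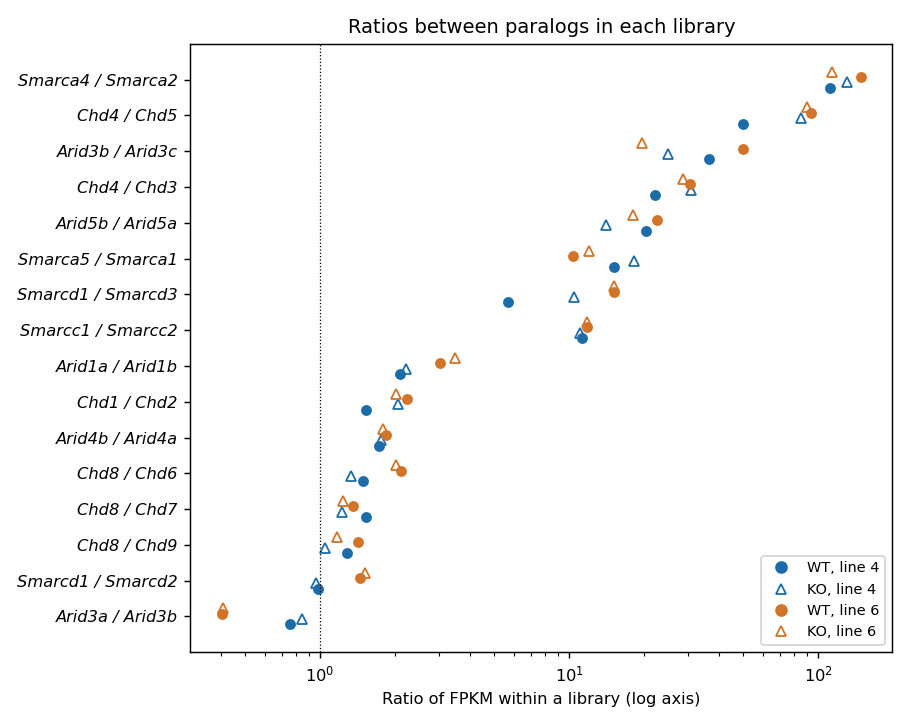
Ratio of FPKM between paralogs within each library (log axis), with symbols as for the levels and a dotted line at a ratio of 1. Smarca4 to Smarca2 lies at 112 to 148, while Smarcd1 to Smarcd2 lies at 0.963 to 1.52 and separates the lines.

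The clones were checked against their labels. Kat2a stood at 38.7 FPKM in the line 4 WT clone, at 34.4 FPKM in the line 6 WT clone and at 11.5 FPKM in each KO clone. The files hold 1 value per gene, so the signal that remains in KO cannot be placed inside or outside the deleted exons, and it checks the labels only in that both KO clones lay below both WT clones. All 10 stem cell markers listed, Pou5f1, Nanog and Sox2 among them, were above 1 FPKM in every library, and their summed FPKM was 5363 and 4315 in WT and 3394 and 3566 in KO. The 16 fibroblast markers, of which 15 were above 1 FPKM in every library and none was near 0, summed to 651 and 584 FPKM in WT and 458 and 669 FPKM in KO. The labels give no step that removes feeder cells ahead of the RNA extraction, and their part in the members' levels was not tested. In such bulk samples fewer cells of a type and less RNA per cell cannot be told apart. Summed over all genes, FPKM was 680168 to 757931 in WT and 520491 to 538257 in KO.

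Remodeler transcripts were listed at lower levels in both KO clones, to about the same extent as the median gene, and no member passed the test. All 30 tested members had a lower value in the KO clone in line 4 and again in line 6, as did 86.3% of all 11932 tested genes. For 20 of the 30, both KO clones lay below both WT clones, where 59.8% of tested genes did so. On the log2(FPKM + 1) scale the median member differed by -0.48 in line 4 and -0.19 in line 6, and the median tested gene by -0.44 and -0.19. Over the 4 libraries the median log2 fold change was -0.35 for the members and -0.32 for all tested genes. The limma test called 0 of the 30 members and 0.0168% of all tested genes (adjusted p from 0.445 to 0.728 for the members). At an unadjusted p under 0.05 it was 0 members and 5.54% of tested genes. With the founder line as a block it also called 0 members, against 0.796% of tested genes, and 5 of the 30 had an unadjusted p under 0.05, against 19.8% of tested genes. The lower listing in KO is relative to the spike-in RNA, for which the labels name ERCC mix 1 or 2 without saying which library received which. The spike-in was added to 1 µg of total RNA and not to a number of cells, so these values do not give RNA per cell. After centring each library on its median, the middle member had a log2 fold change of -0.039, 10 of the 30 were on the positive side and 0 passed.

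In the 3 members with the lowest p, Smarcd3, Chd2 and Smarcal1, WT replicate 1 stood above the other libraries. Smarcd3 had a log2 fold change of -0.56 (SE 0.29, limma adjusted p = 0.445), with -0.95 in line 4 and -0.17 in line 6. Without WT replicate 1 its log2 fold change was -0.13. Chd2 had one of -0.48 (SE 0.26, adjusted p = 0.445), with -0.88 in line 4 and -0.090 in line 6, and -0.23 without WT replicate 1. Smarcal1 had one of -0.49 (SE 0.27, adjusted p = 0.445), with -0.76 and -0.22 in the lines, and -0.21 without WT replicate 1. In Chd5 the lines stood at -0.72 and -0.11. WT replicate 1 was at least 1.4-fold above the next library in these 4 of the 30 members, by a factor of 2.15 for Smarcd3, 1.62 for Chd5, 1.55 for Smarcal1 and 1.45 for Chd2, where 13.8% of tested genes had WT replicate 1 so far above. For KO replicate 1, WT replicate 2 and KO replicate 2 it was 0 members, and 0.0419%, 0.838% and 0.645% of tested genes. In line 4, 7 of the 30 members were lower in KO by at least 1.5-fold on this scale (Smarcd3, Smarcal1, Chd2, Chd3, Chd5, Arid4a and Arid4b), against 16.1% of tested genes, and in line 6 it was 0 members, against 1.5% of tested genes. With 1 WT and 1 KO clone per line, these differences have no replicate check within a line, and whether the lines differ in their response was not tested.

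The abundant motors and core subunits stayed close to the median gene. Smarca4 had a log2 fold change of -0.36 (95% interval -0.82 to 0.091), or -0.047 relative to the median gene. Chd4 had one of -0.31 (interval -0.75 to 0.13), or 0.0064 relative to it. Smarcb1 lay at -0.013 relative to the median gene, Smarcc1 at -0.027 and Smarca5 at 0.033. The intervals of Smarca4 and Chd4 include 0 as well as a log2 fold change of -0.75. At the other end, Arid3a had the smallest difference among tested members, with a log2 fold change of -0.12 (limma adjusted p = 0.728), or 0.20 above the median gene, and Chd9 followed at -0.17, or 0.15 above it. Relative to the median gene the members ran from -0.50 to 0.25 in line 4 and from -0.14 to 0.14 in line 6. In both lines 25 of the 30 lay within 0.25 of it, as did 76.1% of tested genes.

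**Figure D3:**
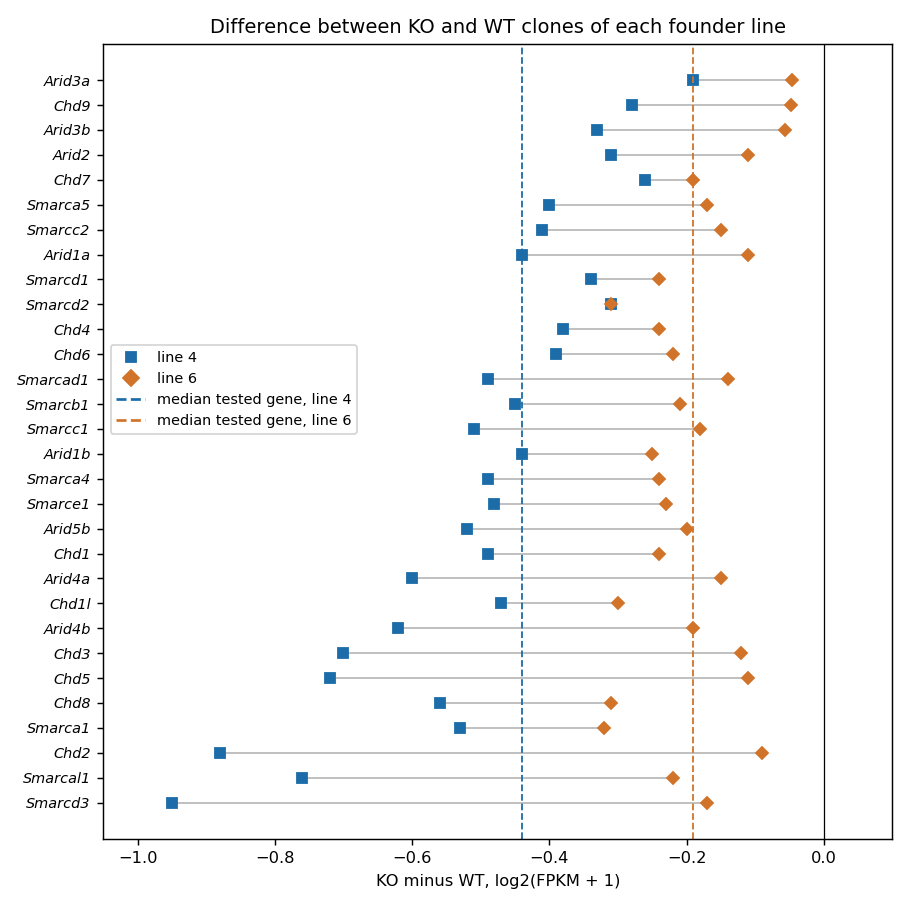
KO minus WT on the log2(FPKM + 1) scale for the 30 tested members, with a blue square for line 4 and an orange diamond for line 6, ordered by the log2 fold change over 4 libraries. Dashed lines mark the median tested gene of each line, at -0.44 and -0.19, and all points lie left of 0.

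The founder lines differed in some members by more than the genotypes did. Arid1a was 1.80 times as high in line 6 as in line 4 among WT clones and 2.37 times among KO clones, in FPKM. Smarcad1 was 1.54 and 1.98 times as high and Smarca1 1.54 and 1.90 times as high. Chd7 was 1.48 and 1.56 times as high, Chd8 1.30 and 1.58 times and Arid2 1.29 and 1.51 times. Arid3a went the other way, at 0.600 among WT and 0.675 among KO clones. Both line 6 clones were above both line 4 clones in 9 of the 30 tested members (Smarcd1, Arid1a, Arid2, Smarca1, Smarcad1, Chd7, Chd8, Chd9 and Arid3b), where 16.3% of tested genes were, and below them in 1 (Arid3a), where 17.4% of tested genes were. Taken in either direction, 33.7% of all tested genes did not overlap between the lines, near the 10 of 30 among the members.

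On the deposited scale no member passed the test between the lines. Arid1a had the largest log2 difference, 0.94 (SE 0.34, 95% interval 0.28 to 1.60, limma adjusted p = 0.166), higher in line 6 in WT and in KO. Smarcad1 had one of 0.79 (SE 0.35, adjusted p = 0.397) and Smarca1 one of 0.63 (SE 0.31, adjusted p = 0.544). At an unadjusted p under 0.05 these 3 stood out, as did 8.62% of tested genes. After adjustment the test called 1.98% of all tested genes, 0.947% higher and 1.03% lower in line 6. With genotype as a covariate these 3 members passed (adjusted p = 0.000925, 0.00246 and 0.0483), where 9.13% of tested genes did, 3.67% higher and 5.46% lower. That fit, like the one without the covariate, gave an infinite prior df, so each gene received the spread of genes of its level. After centring each library on its median, 14 of 30 members passed, 13 higher in line 6 and 1 lower, where 30.2% of tested genes did, 16.4% higher and 13.8% lower. There the difference was 0.98 for Arid1a (SE 0.075, adjusted p = 0.00192), 0.83 for Smarcad1 (adjusted p = 0.00192), 0.67 for Smarca1 (adjusted p = 0.00683), 0.59 for Chd7 (adjusted p = 0.00788), 0.52 for Chd8 (adjusted p = 0.00864) and 0.49 for Arid2 (adjusted p = 0.00949). Arid3a was lower in line 6, at -0.49 (adjusted p = 0.0271). The other 7 that passed were Smarcd1, Smarce1, Arid1b, Smarca5, Chd4, Chd9 and Arid3b. Quantile normalization also gave 14 members, against 32.4% of tested genes, and the covariate with centring 13, against 29.6%. Leaving out a line 4 library leaves 1 clone of that line, with the spread taken only from the WT and KO clones of line 6 and from genes of like level, so these fits show how the calls vary and are no support for them. Without WT replicate 1 Arid1a was called (limma adjusted p = 0.000238), as were Smarca1 and Smarcad1 and 7.15% of tested genes, 5.72% higher and 1.43% lower. Without KO replicate 1 Arid1a was called (limma adjusted p = 0.0352), as were Smarcd3, Smarcal1 and Arid3a, all 3 lower in line 6, and 13.5% of tested genes, 2.02% higher and 11.4% lower. Without WT replicate 2 or without KO replicate 2, where the spread comes only from the line 4 clones, 0 members were called.

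In the comparison of the lines the members' median lay above that of all tested genes. The median log2 difference between line 6 and line 4 was 0.17 for the members and -0.013 for all tested genes. Among WT clones it was 0.039 for the members and -0.14 for all tested genes, and among KO clones 0.33 and 0.12. Without KO replicate 1 the median of the members was -0.068, with -0.23 for all tested genes. Some markers of other cells moved with the line as well. The 7 endoderm markers summed to 4.01 and 1.75 FPKM in the line 4 clones, WT and KO, and to 8.42 and 6.12 FPKM in line 6, with Afp under 0.1 FPKM in all libraries. Limma called 1 of the 2 tested higher in line 6, where 0.947% of all tested genes were. Among neural markers, Sox1 was listed at 0.469 and 0.214 FPKM in line 4, WT and KO, and at 1.39 and 1.58 FPKM in line 6, and Pax6 at 0.211 and 0.263 FPKM and at 1.03 and 0.915 FPKM. Tubb3, at 25.0 and 28.9 FPKM in line 4 and 35.9 and 30.8 FPKM in line 6, and Nes, at 4.96 and 4.76 FPKM and at 7.61 and 5.86 FPKM, were also higher in both line 6 clones, while Neurog2 and Dcx were under 0.1 FPKM throughout. The trophectoderm markers summed to between 49.5 and 61.8 FPKM and the mesoderm markers to between 2.50 and 2.85 FPKM over the 4 libraries. Eomes, in both lists, was the top mesoderm marker, at 2 and 1.58 FPKM in line 4, WT and KO, and 1.73 and 1.34 FPKM in line 6. The other mesoderm markers were under 1 FPKM. Of these, Kdr was higher in both line 6 clones (0.142 and 0.155 FPKM in line 4, 0.468 and 0.259 FPKM in line 6). Hand1 was lower in both, and T, Mixl1 and Mesp1 overlapped. Single trophectoderm markers differed in both directions. Tfap2c, named after its values were seen, was listed at 35.5 and 27.6 FPKM in line 4, WT and KO, and at 16.3 and 13.2 FPKM in line 6. Krt8, Krt18 and Cdx2 were higher in both line 6 clones. With genotype as a covariate, and also after centring, limma called 1 of the 4 tested lower in line 6 and 0 higher. Of all tested genes, 5.46% were called lower and 3.67% higher with the covariate, and 13.8% and 16.4% after centring. After centring limma called 1 of the 10 stem cell markers higher in line 6 and 3 lower, where 16.4% and 13.8% of all tested genes were. The fibroblast sums of 651 and 458 FPKM in line 4 and 584 and 669 FPKM in line 6 overlapped, but single fibroblast markers differed in both directions. With genotype as a covariate limma called 3 of the 16 higher and 3 lower in line 6, where 3.67% and 5.46% of all tested genes were. After centring it called 5 higher and 3 lower, where 16.4% and 13.8% were. Tagln was listed at 31.8 and 28.4 FPKM in line 4 and at 47.5 and 53.0 FPKM in line 6, and Col3a1 at 21.9 and 16.5 FPKM and at 8.18 and 10.1 FPKM, both named after their values were seen. The part of these cells in the differences between the lines was not tested.

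**Figure D4:**
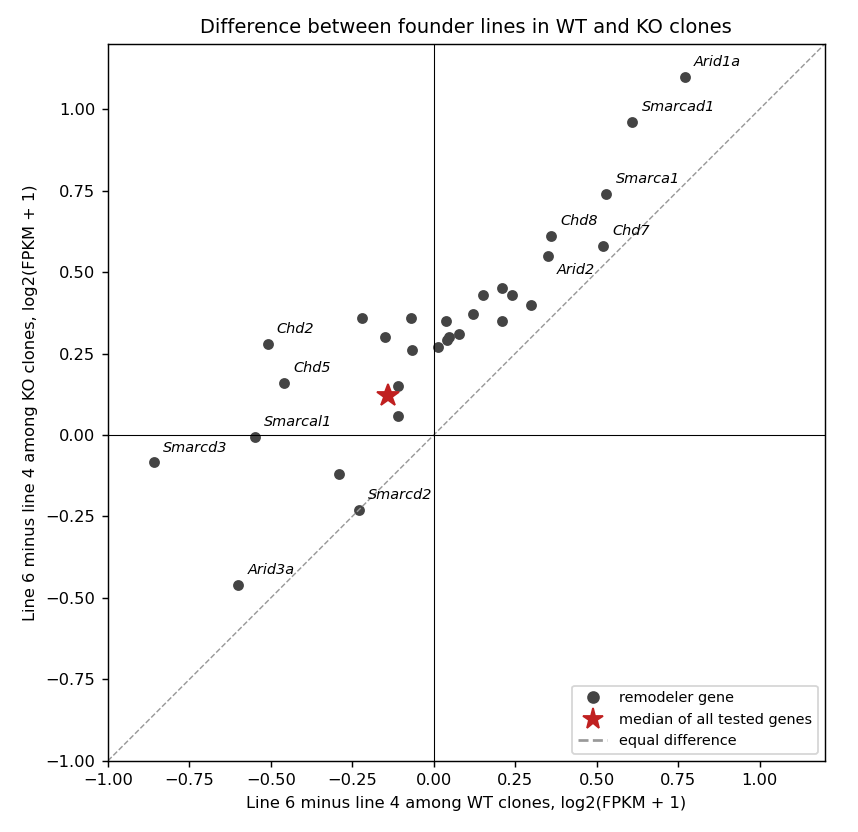
Difference between line 6 and line 4 on the log2(FPKM + 1) scale among WT clones (horizontal) and KO clones (vertical) for the 30 tested members. The star is the median of all tested genes, at -0.14 and 0.12, and the dashed line marks an equal difference. Arid1a, Smarcad1 and Smarca1 lie at the upper right, and Arid3a lies lowest.

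Other genes of the remodeling complexes, 79 in 7 lists of which 71 were tested, were also mostly listed lower in KO. Of the 71, 69 were lower in both lines, where 86.3% of all tested genes were. The limma test called 0 of the 71, against 0.0168% of all tested genes. At an unadjusted p under 0.05 it was 3, all lower, against 5.54% of all tested genes. Of the 12 tested genes among 18 other SWI/SNF subunits, all 12 were lower in KO in both lines, with a median log2 fold change of -0.30. Phf10, a PBAF subunit, had the lowest p, with a log2 fold change of -0.41 (limma adjusted p = 0.445), and Actl6a, the actin-related subunit of proliferating cells, had one of -0.32. Among the ISWI partners 0 of 12 passed in either direction, with a median of -0.34, and among the partners of Chd3, Chd4 and Chd5 in NuRD and ChAHP 0 of 10, also with a median of -0.34. Hdac1, the deacetylase of NuRD, was listed at 113 (WT) and 71.0 FPKM (KO) in line 4 and at 109 and 88.3 FPKM in line 6, a log2 fold change of -0.48 (adjusted p = 0.445). In the list of INO80, p400 and related complexes 0 of 16 passed, with a median of -0.31, among other SNF2-type motors 0 of 10 (-0.33), among other ARID-domain proteins 0 of 4 (-0.36) and among the Sin3 partners of Arid4 0 of 7 (-0.33).

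Between the lines these lists had 0 genes past the limma test on the deposited scale, and 0 at an unadjusted p under 0.05. Bptf, the large subunit of the ISWI complex NURF, was listed at 16.4 and 12 FPKM in line 4, WT and KO, and at 22.7 and 20.3 FPKM in line 6, a log2 difference of 0.58 (limma adjusted p = 0.700). Jarid2, an ARID protein of Polycomb complex PRC2, was listed at 80.9 and 56.5 FPKM in line 4 and 107 and 99.2 FPKM in line 6, a difference of 0.60 (adjusted p = 0.706). Of the genes with the lowest p in their lists, Ss18l1 (-0.49), Hmgxb4 (-0.47), Rad54l (-0.44) and Ttf2 (-0.43) were lower in line 6. Besides Bptf and Jarid2, Dpf1, Gatad2b, Mbd2, Ino80c, Ino80b, Kdm5c, Brms1 and Sap130 had a positive log2 difference. The medians of the lists ran from 0.015 to 0.15. With genotype as a covariate Jarid2 passed (limma adjusted p = 0.0252), the 1 call among the 71, where 9.13% of all tested genes were called. On centred values 17 of the 71 tested genes of the 7 lists were called higher and 4 lower in line 6, where 16.4% and 13.8% of tested genes were.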

How the data were processed

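The deposited files hold 1 FPKM value per gene and library, normalized by the authors to spike-ins, per the file headers, by steps that the sources used here do not give. ERCC spike-in RNA was added to 1 µg of total RNA, and libraries were ribosomal RNA depleted and stranded, per the labels' protocols. The submitters' processing notes name Bowtie 0.12.8, TopHat2 2.0.9, HTSeq, affy, edgeR and build mm9, with no role given. FPKM values keep no read counts, so the depth is unknown and no counting interval can be given. Of 23259 genes found in all 4 files, 11932 with a mean of at least 1 FPKM were tested. FPKM + 1 was taken to log2, and limma 3.58.1 (R 4.3.3; empirical Bayes with trend, two-sided, Benjamini-Hochberg threshold 0.05 over all tested genes) compared 2 KO with 2 WT clones, and 2 clones of line 6 with 2 of line 4. A fold change on this scale understates that of low genes. Differences relative to the median gene subtract the median of all tested genes. The scripts were tested on simulated data.

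Each genotype has 1 clone from each of 2 lines, so p-values rest only on the spread between these clones. Where a fit gave an infinite prior df, as between the lines on the deposited scale, that spread came from genes of like level. It was then not the spread of the gene itself. Between the lines without the covariate, the difference between WT and KO clones of a line counts as spread. Same-numbered clones come from the same founder line, and their deviations from the genotype means correlated at 0.695, so the line was used as a block in an alternative fit. Other alternatives were pseudocounts, filters, centring, quantile normalization, a robust spread and leaving out each library. Ratios between libraries within a line have no test. Members and lists were chosen with earlier results of these data known. All members were named, and of each other list the genes with the lowest p in either comparison could be named. Sequences came from GENCODE M21 (GRCm38), aligned with Biopython 1.88, and no coordinates of mm9 were used. 1 marker gene, and the sum of the list that holds it, is not reported here.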

Additional observations from a re-analysis of the deposited data

Results flagged for a closer look

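The KO clone differed from the WT clone in opposite directions in the founder lines for 2 members, both under 1 FPKM in every library. The ratio of KO to WT FPKM of Smarca2 was 0.612 in line 4 and 1.11 in line 6. That of Arid5a was 0.971 in line 4 and 1.07 in line 6. The difference between the lines was not tested for either gene, since each line has 1 WT and 1 KO clone.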

How the results depend on the processing

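Of the results on called genes, 0 members passed between KO and WT under every alternative run. The mean ratio of each paralog pair stayed on its side of 1. For Smarcd1 to Smarcd2 this holds only for the mean, since its single libraries ran from 0.963 in line 4 to 1.52 in line 6. Depth is not known from FPKM, and 4 clones set the precision. The cause of the changes below was not tested.

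Between KO and WT, the number of genes called was 2. It was 0 without a filter, on centred values and after quantile normalization, 8 with a mean of at least 5 FPKM, 95 with the founder line as a replicate block, 33 with that and centring, 91 with that and a robust spread (chosen after seeing the data), and it ran from 0 to 133 when 1 library was left out. The block changed no call of a member. The median member was at -0.039 on centred values with or without the block and at -0.0011 after quantile normalization, against -0.35. Relative to the median gene it was -0.028, and it moved to -0.0046 with a pseudocount of 0.1 FPKM, -0.18 without a filter, 0.0078 with a mean of at least 5 FPKM, -0.0024 after quantile normalization and -0.13 to 0.06 when 1 library was left out.

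Between line 6 and line 4, 236 genes were called. The number was 0 without a filter, 75 with a mean of at least 5 FPKM, 3602 on centred values, 3865 after quantile normalization, 1089 with genotype as a covariate, 3531 with both the covariate and centring, 1096 with the covariate and a robust spread (chosen after seeing the data) and 7 to 1607 when 1 library was left out. In the same order from centring on, 14, 14, 3, 13 and 3 members passed, and 0 to 4 when 1 library was left out. The median member ran from -0.068 (without KO replicate 1) to 0.42 (without WT replicate 1), against 0.17. Relative to the median gene it was 0.18, and it was 0.14 without a filter, 0.20 with a mean of at least 5 FPKM and 0.16 to 0.21 when 1 library was left out.

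With 1 FPKM added to both genes, the mean ratio was 39.9 for Smarca4 to Smarca2 (103 with 0.1 FPKM added), 9.57 for Smarcc1 to Smarcc2, 22.8 for Chd4 to Chd3, 47.6 for Chd4 to Chd5, 6.87 for Arid3b to Arid3c, 1.65 for Arid4b to Arid4a and 7.41 for Arid5b to Arid5a.

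Some log2 differences between KO and WT, none past the test, changed sign. On centred values, with or without the replicate block, they were 0.025 for Smarcc2, 0.018 for Smarcd1, 0.028 for Arid1a, 0.10 for Arid2, 0.022 for Smarca5, 0.0006 for Chd6, 0.083 for Chd7, 0.14 for Chd9, 0.19 for Arid3a and 0.11 for Arid3b. After quantile normalization they were 0.018 for Smarcb1, 0.017 for Smarcc1, 0.0085 for Smarcc2, 0.058 for Smarcd1, 0.026 for Smarcd2, 0.028 for Arid1a, 0.12 for Arid2, 0.068 for Smarca5, 0.031 for Smarcad1, 0.065 for Chd4, 0.00015 for Chd6, 0.089 for Chd7, 0.16 for Chd9, 0.16 for Arid3a and 0.11 for Arid3b. When 1 library was left out the range was -0.83 to 0.27 for Arid1a, -0.48 to 0.064 for Arid2, -0.80 to 0.16 for Smarcad1, -0.51 to 0.068 for Chd7, -0.39 to 0.059 for Chd9, -0.42 to 0.18 for Arid3a and -0.41 to 0.018 for Arid3b.

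Between the lines Chd6 was at 0.014 on centred values, with or without genotype as a covariate, and at 0.00089 after quantile normalization. When 1 library was left out the range was -0.072 to 0.42 for Smarca4, -0.064 to 0.39 for Smarcb1, -0.16 to 0.35 for Smarcc1, -0.18 to 0.23 for Smarcc2, -0.0066 to 0.39 for Smarca5, -0.66 to 0.10 for Smarcal1, -0.11 to 0.39 for Chd1, -0.55 to 0.32 for Chd2, -0.28 to 0.42 for Chd3, -0.51 to 0.21 for Chd5, -0.22 to 0.17 for Chd6, -0.44 to 0.031 for Chd1l, -0.22 to 0.38 for Arid4a, -0.17 to 0.45 for Arid4b and -0.064 to 0.45 for Arid5b.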

Other observations

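The ratio of SWI/SNF core to ARID subunits was lower in both line 6 clones, and the difference was not tested. It holds Arid1a and Arid2, already described as higher in line 6, so it is no separate result. Of single tested genes, 33.7% did not overlap between the lines. The level of Smarce1 is uncertain because of its shared sequence. The median FPKM of Smarca4, Smarcb1, Smarcc1 and Smarce1 was 2.69 and 2.55 times the summed FPKM of Arid1a, Arid1b and Arid2 in the line 4 clones, WT and KO, and 1.85 and 1.76 times in the line 6 clones.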
